A study of Mus musculus with 6 samples.

Results

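Fibroblast growth factors (FGF), their receptors and the Sprouty inhibitors were examined in thymic epithelial cells sorted by the activity of a Meis1 reporter. The members were the array's non-control probes named for an FGF gene, for the receptors Fgfr1 to Fgfr4 or for Spry1 to Spry4, together with those named Fgfrl1, Fgfbp1, Frs2 and Frs3. The rule found 60 of 41174 probes, which stand for 33 of the 28033 genes named on the array. These were 21 FGF genes, 4 kinase receptors, 4 Sprouty genes, 2 adaptors, 1 kinase-less receptor and 1 carrier. No measured value entered the rule.

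The cells came from C57BL/6 mice aged 4 weeks that carry an EGFP reporter for Meis1 on a bacterial artificial chromosome, line Tg(Meis1-EGFP)FO156Gsat/Mmcd, and all samples share this transgene. Thymic epithelial cells (TEC) form the stroma in which T cells mature and are selected, and Meis1 is a homeodomain transcription factor. Cells lacking the leukocyte antigen CD45 and bearing the adhesion molecule EpCAM were sorted into 3 gates. Meis1-high cells were bright for EGFP and small by forward scatter, Meis1-low cells were intermediate for EGFP and large, and Meis1-negative cells lacked EGFP and were small. Reporter and cell size therefore differ together between Meis1-low and both other gates. Each gate gave 2 arrays, each from a pool of 6 mice, with 10 ng of RNA amplified before hybridisation in 1 colour. The gates follow the brightness of a transgene and not the endogenous protein, and the pools come from 2 experiments that the labels call independent.

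A level is given here as the log2 signal of a probe relative to the 75th percentile of its own array. Such a level can be set against the same probe on another array, but not against another probe. A gene is represented by its brightest probe, and a difference is the mean level of the first gate minus that of the second. Genes were tested with limma where a probe was well above background on both arrays of at least 1 gate, and p-values were adjusted over all 18221 genes tested. The first replicates of all gates shared slide 1 and the second replicates slide 2, so differences are also given within each slide.

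The signal at the 75th percentile ranged from 73.4 to 164.9 between arrays, and 53.1% to 69.6% of spots were well above background. Meis1 itself had levels of 0.24 and 0.12 in Meis1-high cells, against -2.35 and -1.61 in Meis1-low cells and -3.20 and -0.99 in Meis1-negative cells. Meis1-negative replicate 1 stood apart from the other arrays. All 12 thymocyte markers were well above background there, with a summed signal of 1132 times the 75th percentile, against 11 of 12 and 19.7 on Meis1-negative replicate 2. The same sum was 8.06 and 8.58 for Meis1-high cells, against 10.4 and 6.71 for Meis1-low cells, with 9 to 11 of the 12 markers well above background. The 8 TEC markers were well above background on every array, but their summed signal was 51.2 on Meis1-negative replicate 1 and 184 to 468 on the other 5 arrays. The 5 leukocyte markers summed to 10.4 and 7.28 in Meis1-high cells, against 29.8 and 27.6 in Meis1-low cells and 76.3 and 40.5 in Meis1-negative cells. Ptprc, the gene of the CD45 antigen that the sort selected against, had levels of -0.69 and 0.37 in Meis1-high cells, against -1.00 and 0.43 in Meis1-low cells and 5.17 and 3.17 in Meis1-negative cells. Leaving out Meis1-negative replicate 1 therefore leaves an array that also carries leukocyte signal. The differences from Meis1-negative that are printed with an error are also given without replicate 1 where that moved them by over 1.5 times, and the part of thymocyte and other leukocyte RNA in them was not tested.

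FGFs of the paracrine kind are secreted, bind heparan sulphate near their source and activate receptor tyrosine kinases on neighbouring cells. Fgf7 and Fgf10 from the mesenchyme act through an epithelial splice form of Fgfr2, and this route is known for supporting the growth of the thymic epithelium. The receptor signals through the adaptor Frs2 to Ras and ERK, and Sprouty proteins are induced by that signal and dampen it. Endocrine FGFs travel in the blood and need Klotho coreceptors, whereas the homologous factors Fgf11 to Fgf14 stay inside the cell and bind voltage-gated sodium channels.

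Fgfr1 and Fgfr2 were the members with the largest differences of Meis1-high over Meis1-low, but no member passed the test. Of the 33 genes, 22 were tested and 11 were too dim. Of the 22, Fgf5, Fgf10, Fgf15 and Fgf18 passed the filter only through the Meis1-low gate, so their higher Meis1-low values follow from the filter and are given as a description. In Meis1-high against Meis1-low, limma called 0 of 22 members at an adjusted p under 0.05, as it called 0% of all genes tested. At an unadjusted p under 0.05 there were 2 members, Fgfr1 and Fgfr2, both higher in Meis1-high. That is 9.09% of the members in either direction, against 12.9% of all genes, and among all genes 4.67% were higher and 8.28% lower by that rule. In Meis1-high against Meis1-negative, limma called 0 of 22 members and 0% of all genes, and 4 members (Fgf1, Fgf12, Fgfr1 and Fgfr2) had an unadjusted p under 0.05, all higher in Meis1-high. These are 18.2% of the members, against 10.5% of all genes in either direction, 5.69% higher and 4.84% lower. In Meis1-low against Meis1-negative, limma called 0 of 22 members and 0% of all genes, and 3 members had an unadjusted p under 0.05, against 8.08% of all genes. Fgf12 and Fgf21 were higher in Meis1-low, where the share of all genes was 5.02%, and Fgfr1 was lower, where it was 3.06%. The moderated F test over the 3 gates called 0 members and 0% of all genes, with Fgf12, Fgfr1 and Fgfr2 at an unadjusted p under 0.05 against 11.4% of all genes.

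Counts of members by sign were near or above the background, and those by overlap of the arrays lay on both sides of it. The difference was above 0 for 10 of 22 members in Meis1-high against Meis1-low (44.6% of all genes), for 18 in Meis1-high against Meis1-negative (46.3%) and for 16 in Meis1-low against Meis1-negative (52%). Fgf5, Fgf10, Fgf15 and Fgf18, let in through Meis1-low alone, are among the 16 and are all below 0 in the first comparison. They also enter the medians below. Fgf1, Fgf9, Fgf11, Fgf12 and Fgfbp1 passed the filter through Meis1-high and Meis1-low but not through Meis1-negative. All of these are among the 10 higher members of Meis1-high against Meis1-negative given below, and no member passed through Meis1-negative alone. The filter thus bears on every comparison, and nothing is read from these counts and medians. In Meis1-high against Meis1-low the arrays did not overlap for 8 higher members (22.6% of all genes) and 5 lower ones (31.1%). Those numbers were 10 higher (19.3%) and 0 lower (20%) in Meis1-high against Meis1-negative, and 5 higher (23.5%) and 2 lower (15.8%) in Meis1-low against Meis1-negative. Fgf5 and Fgf10 among the lower ones of the first comparison, and Fgf10 among the higher ones of the third, came in by the filter. Both Meis1-high arrays were above the other 4 for 5 of 22 members (Fgf9, Fgf11, Fgfr1, Fgfr2 and Fgfr3), against 12.8% of all genes. Both Meis1-low arrays were above the other 4 for Fgf10, Fgf12, Fgf14 and Fgf21, 4 members against 15.7% of all genes, with Fgf10 among them by the filter. No member had both Meis1-negative arrays above the other 4, which 6.61% of all genes did. The median difference of the tested members was -0.14 in Meis1-high against Meis1-low, where the median of all genes was -0.15. It was 0.59 in Meis1-high against Meis1-negative, where that of all genes was -0.10, and 0.81 in Meis1-low against Meis1-negative, where it was 0.05. Without Meis1-negative replicate 1 these last medians were 0.30 and 0.26, so that array moved both by more than a factor of 1.5.

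**Figure D1:**
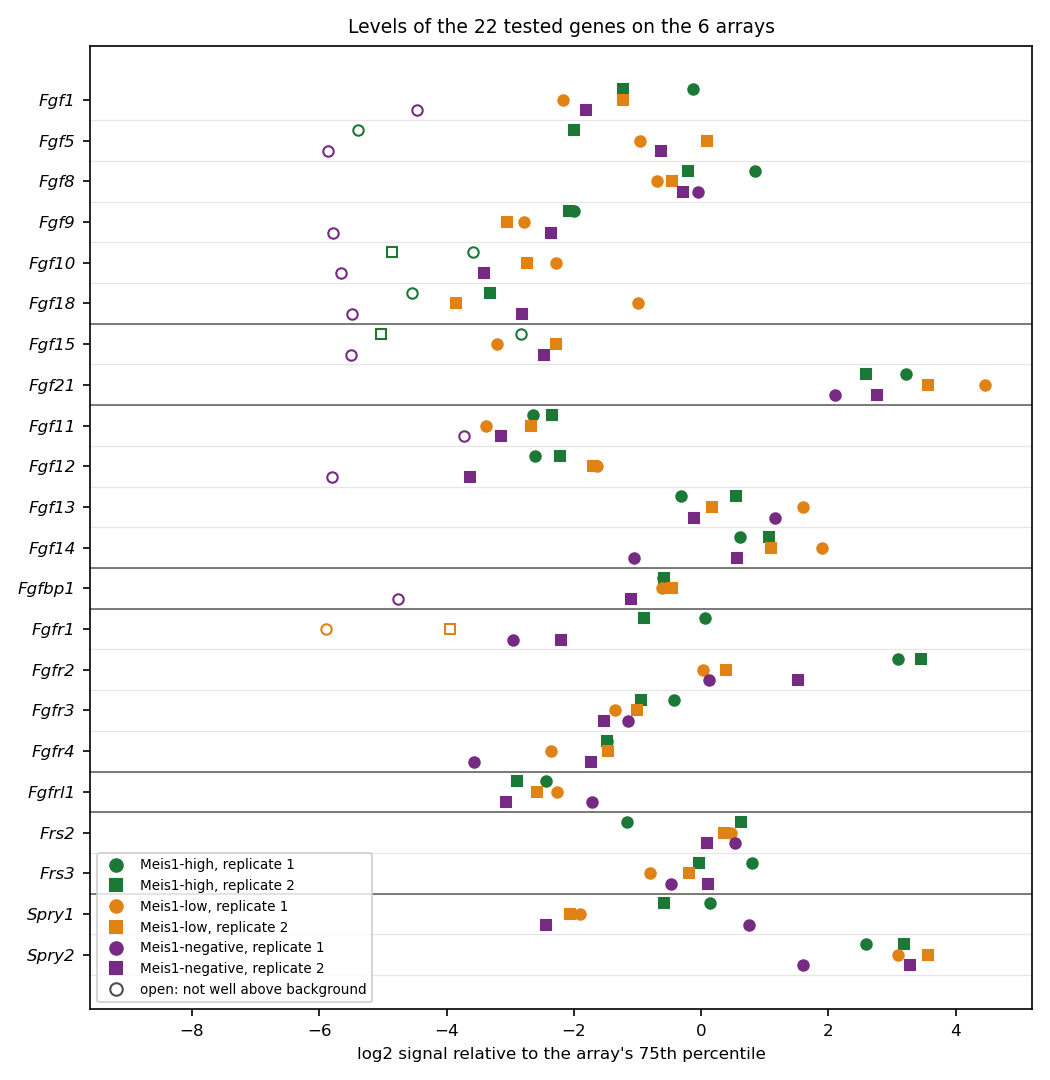
Level of each tested member (rows, by its brightest probe) on each of the 6 arrays, as log2 signal relative to the array's 75th percentile, with gates in colours, replicates as circles and squares, and open symbols where the probe was not well above background. Positions can be compared within a row but not between rows; Fgfr2 lies at 3.09 and 3.46 in Meis1-high and at or below 1.53 on the other 4 arrays.

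Among the 4 kinase receptors, all differences between Meis1-high and the other gates were above 0. Fgfr2, the receptor for Fgf7 and Fgf10 in epithelia, had levels of 3.09 and 3.46 in Meis1-high cells, against 0.02 and 0.39 in Meis1-low cells and 0.13 and 1.53 in Meis1-negative cells. Both Meis1-high arrays were above all others, and the Meis1-low and Meis1-negative arrays overlapped. Fgfr2 was 8.41-fold higher in Meis1-high than in Meis1-low, a log2 difference of 3.07 ± 0.69 (SE, n = 2 arrays each, limma adjusted p = 0.254), with 3.07 on slide 1 and 3.08 on slide 2. Against Meis1-negative the difference was 2.45 ± 0.69 (SE, limma adjusted p = 0.342), with 2.96 and 1.93 on the slides and 1.75 without Meis1-negative replicate 1. Without replicate 2 of that gate it was 3.15 and passed (limma adjusted p = 0.0479), with 1 Meis1-negative array left. Under the normexp background correction the fit called both, at 2.62 (limma adjusted p = 0.0018) and 2.01 (limma adjusted p = 0.0235). That fit gave every member the same SE, 0.55, so these calls rest on a variance shared across genes and not on the spread of Fgfr2 between its own pools. In pooled cells, a larger share of cells with the transcript and more of it per cell cannot be told apart, here and in all comparisons that follow.

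Fgfr2 had 3 probes, all tested, and each was higher in Meis1-high than in both other gates. The probe A_51_P432403 had levels of -0.01 and -0.47 in Meis1-high cells, against -4.87 and -4.06 in Meis1-low cells and -3.74 and -2.69 in Meis1-negative cells, and it was not well above background on either Meis1-low array. Its signal was at least 15.4-fold higher in Meis1-high than in Meis1-low, the bound that the lowest signal well above background on each Meis1-low array allows. The third probe, A_52_P158800, lies 79.254 kb toward the 5′ end of the gene from the brightest one. It had levels of -0.87 and -0.45 in Meis1-high cells, against -1.71 and -3.00 in Meis1-low cells and -4.73 and -2.26 in Meis1-negative cells. Its difference was 1.69 ± 0.94 against Meis1-low and 2.83 ± 0.94 against Meis1-negative (SE, n = 2 arrays each). Meis1-negative replicate 1 was not well above background for this probe, and without that array the second value was 1.60. The array's annotation lists 1 RefSeq transcript for this probe and 2 for each of the other Fgfr2 probes. Which splice forms the probes read was not tested. The sequence of A_52_P158800 is shown because it reads a 5′ part of the transcript listed for it. It lies on the minus strand of mm9 at chr7:137385966-137386025, in the extracellular part of the coding sequence.
Fgfr2 A_52_P158800: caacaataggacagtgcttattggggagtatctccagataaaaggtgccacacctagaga

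Fgfr1, the receptor better known from mesenchymal cells, had levels of 0.06 and -0.90 in Meis1-high cells, against -5.90 and -3.94 in Meis1-low cells and -2.96 and -2.20 in Meis1-negative cells. Neither Meis1-low array was well above background. The 3 gates did not overlap, with Meis1-high highest and Meis1-low lowest. Fgfr1 was at least 13.0-fold higher in Meis1-high than in Meis1-low, and the measured difference was 4.50 ± 0.83 (SE, n = 2 arrays each, limma adjusted p = 0.249), with 5.96 and 3.04 on the slides. Against Meis1-negative Meis1-high was higher by 2.16 ± 0.83 (SE, limma adjusted p = 0.438) and by 1.78 without Meis1-negative replicate 1. Meis1-low was at least 2.92-fold lower than Meis1-negative, with a measured difference of -2.34 ± 0.83 (SE, limma adjusted p = 0.608). Under the normexp correction, which adds a constant to all signals, the difference of Meis1-high from Meis1-low was 0.89 and that of Meis1-low from Meis1-negative was 0.08.

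The brightest Fgfr1 probe was printed at 10 spots per array, and the SD between its spots on 1 array, a technical spread, was 0.07 to 0.57 on the log2 scale. A second Fgfr1 probe overlaps it over 39 of 60 bases and so is not an independent reading. That probe had levels of 0.04 and -1.67 in Meis1-high cells, against -6.13 and -3.76 in Meis1-low cells and -2.27 and -2.59 in Meis1-negative cells, the same order of gates. The shared bases are in capitals below. The overlap holds 1 mismatch, in lower case, the substitution A57G counted from the 5′ end of the first probe. The array's annotation lists 0 RefSeq transcripts for the first probe and 3 for the second. Both probes lie near the end of the kinase coding sequence on the plus strand of mm9, at chr8:26684042-26684101 and chr8:26684063-26684122.
Fgfr1 A_51_P109469: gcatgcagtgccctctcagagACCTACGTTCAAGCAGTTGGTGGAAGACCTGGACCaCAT
Fgfr1 A_52_P668810: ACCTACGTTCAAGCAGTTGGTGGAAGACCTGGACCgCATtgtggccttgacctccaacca

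The other 2 Fgfr1 probes were not well above background on any array and were not tested.

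**Figure D2:**
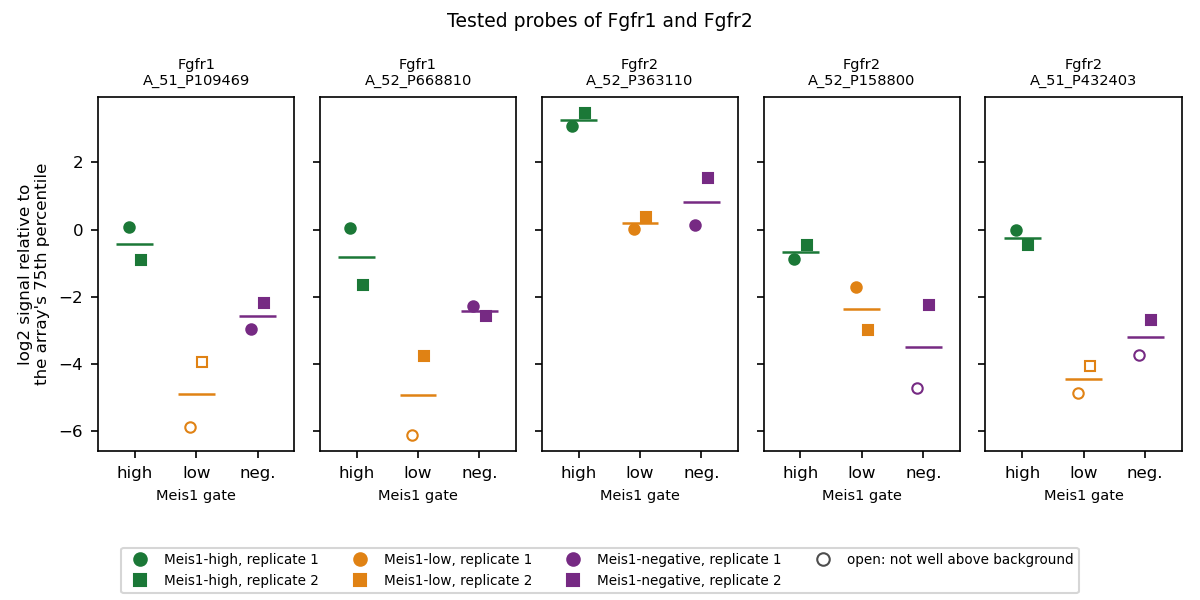
The tested probes of Fgfr1 (2 panels) and Fgfr2 (3 panels), with the log2 level relative to the array's 75th percentile by Meis1 gate, 2 arrays per gate, a line at the gate's mean and open symbols where the probe was not well above background. Meis1-high is highest in the 2 overlapping Fgfr1 probes and in all 3 Fgfr2 probes.

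By their brightest probes, Fgfr3 and Fgfr4 differed less. Fgfr3 had levels of -0.43 and -0.94 in Meis1-high cells, against -1.36 and -1.00 in Meis1-low cells and -1.14 and -1.52 in Meis1-negative cells, so that both Meis1-high arrays were the highest by a small margin. Its difference was 0.50 ± 0.61 from Meis1-low and 0.65 ± 0.61 from Meis1-negative (SE, n = 2 arrays each), within about 1 SE. For a second tested Fgfr3 probe the gates overlapped in every comparison, and Meis1-high minus Meis1-low was 1.03 on slide 1 and -0.15 on slide 2. Fgfr4 had levels of -1.48 and -1.48 in Meis1-high cells, against -2.35 and -1.47 in Meis1-low cells and -3.57 and -1.73 in Meis1-negative cells. The replicate 2 arrays of Meis1-high and Meis1-low were alike, and the difference on slide 2 was -0.01, against 0.88 on slide 1. Fgfr4 differed by 1.17 between Meis1-high and Meis1-negative, and by 0.26 without Meis1-negative replicate 1. A second tested Fgfr4 probe differed by 1.47 ± 0.71 between Meis1-high and Meis1-low (SE, n = 2 arrays each), without overlap. It gave 1.72 on slide 1 and 1.22 on slide 2, and Meis1-low replicate 1 was not well above background. For that probe the difference of Meis1-high from Meis1-negative was 1.66, and 0.93 without Meis1-negative replicate 1. Fgfrl1 is a receptor that lacks the kinase and can bind ligand without passing the signal on. It had levels of -2.44 and -2.89 in Meis1-high cells, against -2.27 and -2.59 in Meis1-low cells and -1.72 and -3.07 in Meis1-negative cells, and its gates overlapped in every comparison. Its difference of Meis1-high from Meis1-negative was -0.27, and 0.40 without Meis1-negative replicate 1.

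Markers of some other cell types are given beside the receptors, and they did not all follow the same order of gates. Of the markers of tuft-like cells, chemosensory epithelial cells, all 5 were well above background on both arrays of Meis1-high, with a summed signal of 15.4 and 15.2 times the 75th percentile, against 2.18 and 2.17 in Meis1-low cells and 1.26 and 3.21 in Meis1-negative cells. The 10 fibroblast and pericyte markers summed to 89.8 and 60.1 in Meis1-high cells, against 53.9 and 39.2 in Meis1-low cells and 72.4 and 45.2 in Meis1-negative cells, with 8 to 10 of them well above background. These sums overlapped between Meis1-high and Meis1-negative. Thy1, a gene of this list, was highest on Meis1-negative replicate 1, the array with the high thymocyte sum, at 5.86. Its other levels ran from 0.72 to 3.01. As Thy1 is part of the sums, no order of this cell type is read from their overlap. Of the 8 tested markers of this list, 5 were above 0 and 3 below in Meis1-high against Meis1-low, where 44.6% of all genes were above 0. Among these, the matrix gene Dcn differed by 1.64 and the collagen gene Col1a1 by -2.06 in Meis1-high against Meis1-low. Of 8 tested cortical epithelial markers, 5 were above 0 in that comparison (median 1.13), and of 7 medullary ones 2 were (median -0.63). The medullary gene Ccl21a differed by 3.34 there and Aire by -2.32. Against Meis1-negative 8 cortical and 5 medullary markers were above 0 (46.3% of all genes). Their medians were 2.33 and 1.14 on the slides for the cortical list, and 1.84 and -0.32 for the medullary one. The part of any of these cell types in the Fgfr1 and Fgfr2 differences was not tested.

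Of the 14 paracrine ligand genes, 6 were tested. Fgf8, which patterns the pharyngeal region from which the thymus forms, was well above background on all 6 arrays. It had levels of 0.85 and -0.21 in Meis1-high cells, against -0.70 and -0.46 in Meis1-low cells and -0.05 and -0.28 in Meis1-negative cells. Meis1-high was above Meis1-low on both slides, by 1.55 and 0.25, and overlapped Meis1-negative. Fgf1, a ligand of all FGF receptors, had levels of -0.12 and -1.22 in Meis1-high cells, against -2.16 and -1.22 in Meis1-low cells and -4.47 and -1.80 in Meis1-negative cells. The lowest of these, on Meis1-negative replicate 1, was not well above background. Fgf1 differed by 2.47 ± 0.98 between Meis1-high and Meis1-negative (SE, n = 2 arrays each, limma adjusted p = 0.451) and by 1.13 without that array.

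Fgf9, known for signalling from epithelium to mesenchyme in other organs, had levels of -2.00 and -2.08 in Meis1-high cells, against -2.78 and -3.05 in Meis1-low cells and -5.78 and -2.35 in Meis1-negative cells. Both Meis1-high arrays were above the other 4, and Meis1-negative replicate 1 was again not well above background. The difference between Meis1-high and Meis1-negative was 2.03 ± 1.07 (SE, n = 2 arrays each, limma adjusted p = 0.574), and 0.31 without that array. Without Meis1-negative replicate 2 it was 3.74 (limma adjusted p = 0.0371), and Meis1-low against Meis1-negative was 2.87 (limma adjusted p = 0.0481). Both of those calls set Meis1-high or Meis1-low against 1 array on which the probe was not well above background, so they do not measure a fold between the gates.

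Fgf5, Fgf10 and Fgf18, which passed the filter through Meis1-low alone, had lower means in Meis1-high than in Meis1-low. Fgf5, an inhibitor of hair growth in skin, had levels of -5.40 and -2.00 in Meis1-high cells, against -0.95 and 0.09 in Meis1-low cells and -5.87 and -0.64 in Meis1-negative cells. The first replicates of Meis1-high and Meis1-negative were not well above background while the second were, so the replicates of both gates disagreed by more than 3 on the log2 scale. Its difference of Meis1-high from Meis1-low was -3.27 ± 1.75 (SE, n = 2 arrays each, limma adjusted p = 0.485), the lowest among the members, with -4.44 and -2.10 on the slides. Fgf18 had levels of -4.54 and -3.32 in Meis1-high cells, against -0.99 and -3.85 in Meis1-low cells and -5.48 and -2.81 in Meis1-negative cells. Its slides pointed opposite ways, with differences of -3.55 and 0.53 between Meis1-high and Meis1-low.

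Fgf10 and Fgf7 are the ligands that thymic mesenchyme supplies to the epithelium. Fgf10 was not well above background on either Meis1-high array, with measured levels of -3.59 and -4.85. It had levels of -2.28 and -2.74 in Meis1-low and of -5.65 and -3.41 in Meis1-negative, where replicate 1 was not well above background. The Fgf10 signal was lower in Meis1-high than in Meis1-low by at least 2.16-fold, with a measured difference of -1.71 ± 0.89 (SE, n = 2 arrays each, limma adjusted p = 0.474), and nothing is read from it because the filter let Fgf10 in through Meis1-low. Fgf7 was well above background on 1 Meis1-low array and 1 Meis1-negative array, both replicate 2, with levels of -1.75 and -3.27, and it was not tested. The 2 Meis1-high arrays were not well above background for Fgf7.

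Another 4 untested genes were well above background on 1 or 2 arrays each, namely Fgf2, Fgf6, Fgf20 and the Sprouty gene Spry4. Fgf3, Fgf16, Fgf17, Fgf22, Fgf23 and Spry3 were not well above background on any array. These 11 genes have no order between gates here, and a dim probe does not show that the transcript was absent.

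Of the 3 endocrine ligands, Fgf21 and Fgf15 were tested and Fgf23 was not. Fgf21, a liver hormone of fasting, had levels of 3.22 and 2.59 in Meis1-high cells, against 4.47 and 3.56 in Meis1-low cells and 2.11 and 2.76 in Meis1-negative cells. Both Meis1-low arrays were above the other 4, and Meis1-high overlapped Meis1-negative. Meis1-high minus Meis1-low was -1.11 ± 0.67 (SE, n = 2 arrays each, limma adjusted p = 0.532), with -1.25 and -0.98 on the slides. Meis1-low minus Meis1-negative was 1.58 ± 0.67 (SE, limma adjusted p = 0.608), with 2.36 and 0.80 on the slides and 1.25 without Meis1-negative replicate 1.

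A second Fgf21 probe showed the same order, with levels of 0.91 and 0.62 in Meis1-high cells, against 2.59 and 1.70 in Meis1-low cells and -0.43 and 1.05 in Meis1-negative cells. This probe is shown because it reads a different stretch of the transcript. Its 60 bases are spread over chr7:52869680-52870294 on the minus strand of mm9, so they cross an intron, and they lie in the coding sequence.
Fgf21 A_51_P315925: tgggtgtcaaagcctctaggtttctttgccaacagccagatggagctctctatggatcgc

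Fgf15, the intestinal hormone of bile acid control, was dim in Meis1-high. It was not well above background on either Meis1-high array, at measured levels of -2.84 and -5.02, against -3.21 and -2.28 in Meis1-low cells and -5.50 and -2.47 in Meis1-negative cells. It was lower in Meis1-high than in Meis1-low by at least 1.61-fold, but it too passed the filter through Meis1-low alone, the slides gave 0.37 and -2.74 and the arrays overlapped.

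All 4 intracellular homologous factors were tested. Fgf12 had levels of -2.61 and -2.22 in Meis1-high cells, against -1.63 and -1.69 in Meis1-low cells and -5.79 and -3.63 in Meis1-negative cells, where replicate 1 was not well above background. Its gates did not overlap, with Meis1-low highest and Meis1-negative lowest. Meis1-low minus Meis1-negative was 3.05 ± 0.81 (SE, n = 2 arrays each, limma adjusted p = 0.502), with 4.16 and 1.94 on the slides, and 1.97 without Meis1-negative replicate 1. Meis1-high minus Meis1-negative was 2.29 ± 0.81 (SE, limma adjusted p = 0.409), and 1.21 without that array. Without Meis1-negative replicate 2 they were 4.13 (limma adjusted p = 0.0354) and 3.38 (limma adjusted p = 0.0419), against the 1 array on which the Fgf12 probe was not well above background.

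Fgf14 had levels of 0.62 and 1.07 in Meis1-high cells, against 1.90 and 1.10 in Meis1-low cells and -1.05 and 0.56 in Meis1-negative cells. By this probe the gates did not overlap and kept the order seen for Fgf12, although on slide 2 Meis1-high and Meis1-low were only 0.03 apart. Meis1-high minus Meis1-negative was 1.09 for Fgf14 and Meis1-low minus Meis1-negative was 1.74, and these were 0.28 and 0.94 once Meis1-negative replicate 1 was left out. The other tested Fgf14 probes, A_51_P242460 and A_52_P168549, also had Meis1-high below Meis1-low without overlap. For both, Meis1-high overlapped Meis1-negative, with differences of -0.003 and 0.98. Without Meis1-negative replicate 1 these were -1.50 and -0.03. Meis1-low also overlapped Meis1-negative for A_51_P242460. Fgf13 had levels of -0.32 and 0.55 in Meis1-high cells, against 1.61 and 0.17 in Meis1-low cells and 1.16 and -0.11 in Meis1-negative cells, and all its gates overlapped. Its difference of Meis1-high from Meis1-negative was -0.41, and 0.23 without Meis1-negative replicate 1. Its other tested probes, A_51_P409220 and A_52_P267243, had Meis1-high below Meis1-low without overlap, with -1.21 and -0.18, and -1.60 and -0.80, on the slides. Meis1-low was also above Meis1-negative for A_52_P267243, by 1.24. Meis1-high differed from Meis1-negative by -0.61 for A_51_P409220, and by -0.35 without Meis1-negative replicate 1. Fgf11 had levels of -2.64 and -2.34 in Meis1-high cells, against -3.38 and -2.68 in Meis1-low cells and -3.73 and -3.14 in Meis1-negative cells. Its Meis1-high arrays were the highest, and the differences of 0.54 ± 0.63 from Meis1-low and 0.94 ± 0.63 from Meis1-negative were within 2 SE. For a second tested Fgf11 probe the gates overlapped in every comparison.

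**Figure D3:**
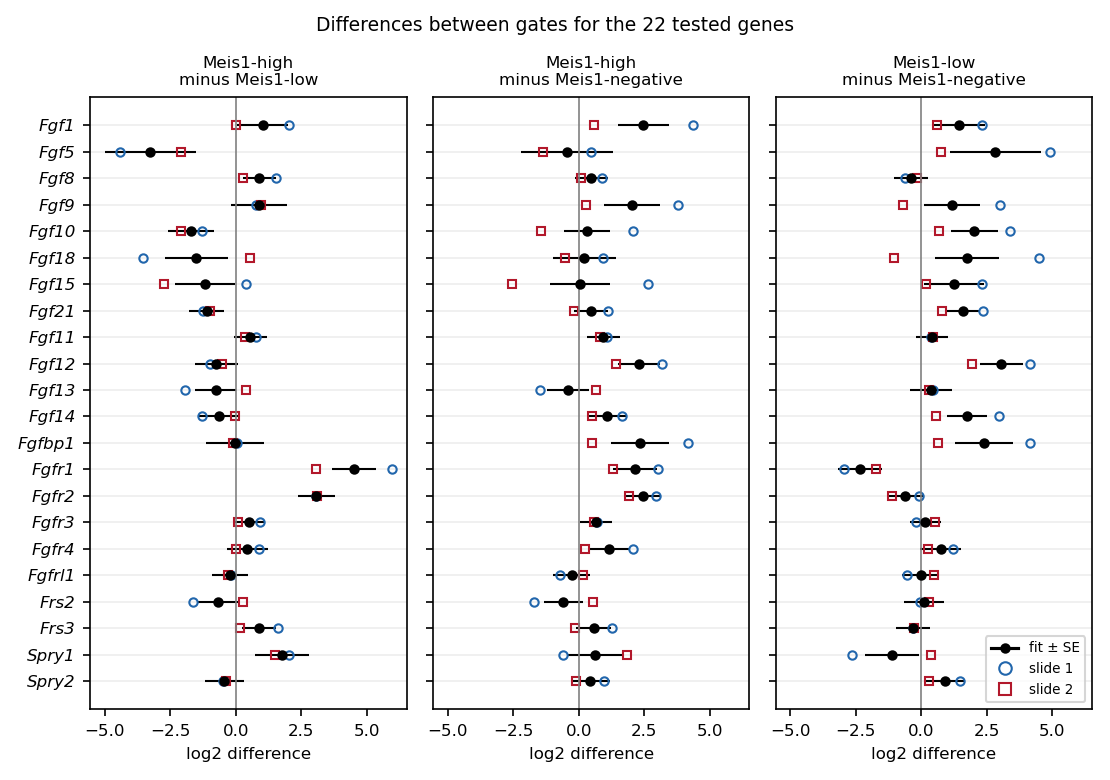
Log2 differences between gates for the 22 tested members (rows), as the fitted value with its SE (black, n = 2 arrays per gate) and within slide 1 (blue circles) and slide 2 (red squares). Fgfr2 has nearly the same difference between Meis1-high and Meis1-low on both slides, 3.07 and 3.08, whereas Fgf1, Fgf9 and Fgfbp1 differ from Meis1-negative mainly on slide 1.

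Fgfbp1, a secreted carrier that frees FGFs from heparan sulphate, had levels of -0.60 and -0.58 in Meis1-high cells, against -0.62 and -0.46 in Meis1-low cells and -4.76 and -1.10 in Meis1-negative cells. Replicate 1 of Meis1-negative was not well above background. Meis1-high and Meis1-low overlapped, and both Meis1-negative arrays were below them. The difference from Meis1-negative was 2.34 ± 1.12 for Meis1-high (limma adjusted p = 0.522) and 2.39 ± 1.12 for Meis1-low (limma adjusted p = 0.608, SE, n = 2 arrays each). Without Meis1-negative replicate 1 these were 0.51 and 0.56, and without replicate 2 they were 4.17 (limma adjusted p = 0.0344) and 4.22 (limma adjusted p = 0.0354). The last pair again rests on 1 dim Meis1-negative array.

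The adaptors Frs2 and Frs3 dock relay proteins at the activated receptor. Frs2 had levels of -1.17 and 0.63 in Meis1-high cells, against 0.47 and 0.37 in Meis1-low cells and 0.53 and 0.10 in Meis1-negative cells, and Meis1-high overlapped both other gates. Its 3 tested probes disagreed in sign in Meis1-high against Meis1-low, from -1.16 to 1.34, so no direction is given for this gene. Frs3 had levels of 0.80 and -0.03 in Meis1-high cells, against -0.80 and -0.19 in Meis1-low cells and -0.47 and 0.11 in Meis1-negative cells. Meis1-high was above Meis1-low on both slides, by 1.60 and 0.16.

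Of the Sprouty genes, Spry1 and Spry2 were well above background on all 6 arrays. Spry1 had levels of 0.14 and -0.59 in Meis1-high cells, against -1.90 and -2.06 in Meis1-low cells and 0.76 and -2.44 in Meis1-negative cells. Meis1-high was above Meis1-low, by 1.76 ± 1.03 (SE, n = 2 arrays each, limma adjusted p = 0.524), with 2.04 and 1.47 on the slides. The Meis1-negative arrays held both the highest and the lowest value of all 6, and without Meis1-negative replicate 1 the difference of Meis1-high from Meis1-negative was 2.22, against 0.62 with it. Spry2 had levels of 2.58 and 3.19 in Meis1-high cells, against 3.09 and 3.56 in Meis1-low cells and 1.60 and 3.28 in Meis1-negative cells, with all gates overlapping. A second Spry2 probe differed in sign in Meis1-high against Meis1-low, at 1.50 ± 1.31 beside -0.44 ± 0.75 for the brighter one.

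Probes of 1 gene gave 1 direction in most cases. Of 10 members with several tested probes, 8 had 1 sign in Meis1-high against Meis1-low, 7 in Meis1-high against Meis1-negative and 8 in Meis1-low against Meis1-negative.

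**Figure D4:**
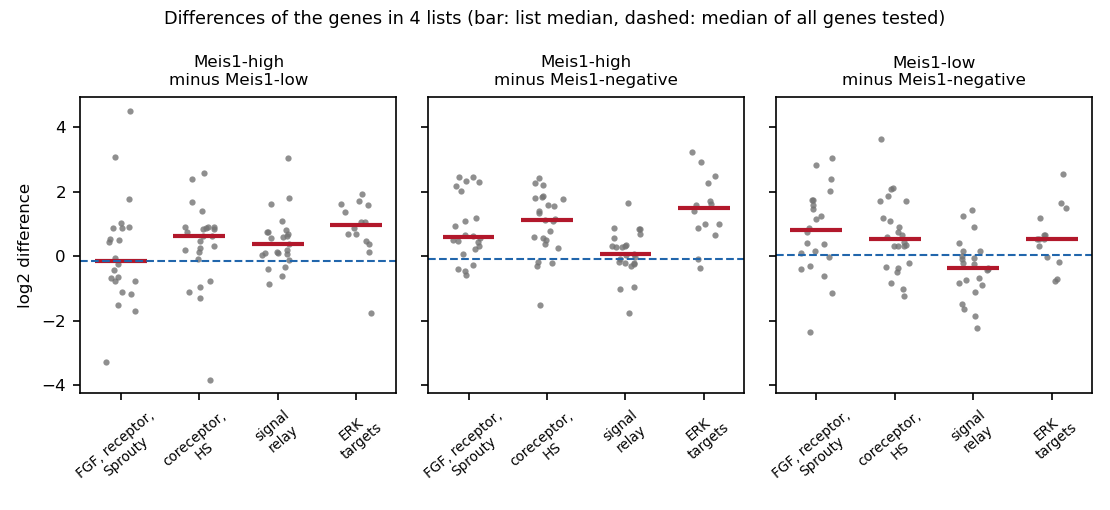
Log2 differences of every tested gene in 4 lists (grey points) for the 3 comparisons, with the list's median as a red bar and the median of all 18221 genes as a dashed blue line. The medians of the ERK-induced targets are 0.96, 1.50 and 0.54 from left to right.

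Other genes of the pathway were counted from 3 lists, and limma called 0 of them in any comparison. Of 14 tested genes that ERK signalling induces, 13 had a difference above 0 in Meis1-high against Meis1-low, where 44.6% of all genes did, and their median was 0.96, beside -0.15 for all genes. At an unadjusted p under 0.05 there was 1 of them, 7.14% of the list, against 12.9% of all genes. In Meis1-high against Meis1-negative 12 were above 0 (46.3% of all genes) and the median was 1.50, beside -0.10 for all genes, with 2.16 on slide 1 and 0.75 on slide 2. There 4 had an unadjusted p under 0.05, 28.6% of the list against 10.5% of all genes. In Meis1-low against Meis1-negative 10 were above 0 (52% of all genes), none had an unadjusted p under 0.05 (8.08%), and the median of 0.54, beside 0.05 for all genes, was 1.33 on slide 1 and -0.19 on slide 2. With Meis1-negative replicate 1 left out, a setting added for these lists after their values were seen, the medians against Meis1-negative were 0.56 for Meis1-high and -0.24 for Meis1-low.

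Fos, an immediate early transcription factor, had levels of 5.67 and 5.37 in Meis1-high cells, against 3.65 and 4.14 in Meis1-low cells and 3.73 and 4.12 in Meis1-negative cells. Both Meis1-high arrays were the highest, by 1.63 ± 0.60 over Meis1-low (SE, n = 2 arrays each, limma adjusted p = 0.331). Phlda1 had levels of 2.52 and 1.95 in Meis1-high cells, against 0.85 and 0.43 in Meis1-low cells and -0.86 and 0.82 in Meis1-negative cells, again with both Meis1-high arrays highest. Phlda1 differed by 2.26 between Meis1-high and Meis1-negative, and by 1.41 without Meis1-negative replicate 1. Dusp4, a phosphatase that turns ERK off, was the 1 gene of the list below 0 in Meis1-high against Meis1-low, at -1.75 ± 0.77 (SE, limma adjusted p = 0.398). Etv1, an ETS transcription factor, differed by 3.22 ± 1.18 between Meis1-high and Meis1-negative (SE, limma adjusted p = 0.42). It was not well above background on Meis1-negative replicate 1, and without that array the difference was 1.31.

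Of the 24 tested coreceptors and enzymes of heparan sulphate, 18 were above 0 in Meis1-high against Meis1-low with a median of 0.63, beside 44.6% of all genes and a median of -0.15. At an unadjusted p under 0.05 there were 2, which is 8.33% of the list against 12.9% of all genes. In Meis1-high against Meis1-negative 20 were above 0 (46.3% of all genes) with a median of 1.13, which was 0.64 without Meis1-negative replicate 1, and 4 had an unadjusted p under 0.05, 16.7% against 10.5% of all genes. In Meis1-low against Meis1-negative 17 were above 0 (52% of all genes) and none had an unadjusted p under 0.05 (8.08%). The median there was 0.53, with 0.98 on slide 1 and 0.03 on slide 2, and 0.07 without Meis1-negative replicate 1. Sulf1, a sulphatase that trims heparan sulphate outside the cell, had levels of 3.81 and 3.92 in Meis1-high cells, against 1.53 and 1.07 in Meis1-low cells and 1.22 and 2.13 in Meis1-negative cells. Both Meis1-high arrays were the highest, by 2.57 ± 0.63 over Meis1-low (SE, n = 2 arrays each, limma adjusted p = 0.254) and 2.19 ± 0.63 over Meis1-negative (limma adjusted p = 0.347). The heparan sulphate proteoglycan Gpc2 differed by 2.40 ± 0.76 between Meis1-high and Meis1-low, and the membrane protein Flrt2 by 1.86 ± 0.61 and the syndecan Sdc1 by 1.82 ± 0.73 between Meis1-high and Meis1-negative (SE). Without Meis1-negative replicate 1 these last were 1.47 and 0.95.

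For the 23 tested genes that relay the signal from receptor to ERK, none had an unadjusted p under 0.05, where 12.9%, 10.5% and 8.08% of all genes did in the 3 comparisons. Of these 18 were above 0 in Meis1-high against Meis1-low (median 0.37, 44.6% of all genes above 0), 13 in Meis1-high against Meis1-negative (median 0.08, 46.3% of all genes) and 7 in Meis1-low against Meis1-negative (median -0.36, 52% of all genes). Without Meis1-negative replicate 1 the last 2 medians were 0.25 and -0.10. Nf1, a Ras inhibitor, differed by 1.81 ± 0.78 between Meis1-high and Meis1-low (SE). Cbl, a ubiquitin ligase that removes active receptors, had levels of 0.81 and 1.32 in Meis1-high cells, against 0.65 and 1.33 in Meis1-low cells and 3.94 and 1.74 in Meis1-negative cells, highest on the array with the high thymocyte sum. Its difference of Meis1-high from Meis1-negative was -1.77, and -0.67 without that array. The docking protein Gab1 differed by 1.65 ± 0.71 between Meis1-high and Meis1-negative (SE), and by 0.97 without that array.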

How the data were processed

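The submitters' processing notes and the file headers name Agilent Feature Extraction 9.5.3.1, and the headers place probes on mm9. The deposited scanner intensity is background-subtracted within each array and not scaled between arrays, per the file headers. The authors' deposited value table is on a log2 scale and was used as an alternative. Control and outlier spots were left out, spots averaged per probe, and each array's 75th percentile subtracted after log2. A probe printed at several spots is well above background where over 0.5 of its spots are, by the scanner's mark at 13 times the background SD. This filter kept 26590 probes and left out 14584, and 40 probes with a missing value could not be scored in full. Gene names were updated from RefSeq tables by accession for 26690 probes, by listed accession for 96, by symbol for 5123 and by synonym for 933, and 8332 kept the files' name. A probe the files name by an older synonym of Fgf12 stayed outside the members.

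Gates were compared with limma 3.58.1 in R 4.3.3, with 1 mean per gate over 6 arrays (3 residual and 4.33 prior degrees of freedom), Benjamini-Hochberg adjustment and a threshold of 0.05. The fit was also run on simulated data with independent normal noise. That run held no slide effect, no background limit and no array that stood apart, so it does not bear on these. "At least" folds compare the brighter gate's mean with, on each dim array, the higher of the lowest signal well above background and the probe's own signal. The number of arrays limits the precision. The p-values rest on a spread between pools that is shared over the 3 gates and moderated toward that of all genes. Probe sequences are those in the scanner files. Coding placement rests on knowledge of the proteins, since no annotation of mm9 was used here. Python 3.11.15, pandas 2.3.3 and matplotlib 3.10.9 drew the figures.

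The members and the lists of related genes and cell markers were chosen with earlier results of these data known. Values on every array are given for each tested member, and up to 4 genes of each related list were named, those with the smallest p of the moderated F test, except 1 that is not reported here. Alternatives were normexp background correction with offset 50, quantile and median scaling, no filter or one on 4 arrays, a floor, a replicate block on the slide, every probe or the mean of a gene's probes, array weights, the authors' values and each array left out.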

Additional observations from a re-analysis of the deposited data

How the results depend on the processing

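The count of genes called by limma was 0 in all 3 comparisons and in the F test under quantile normalization, no filter, a filter on 4 arrays, means of probes, every probe, array weights and the authors' values. Normexp correction gave 232 calls in Meis1-high against Meis1-low (91 higher, 141 lower), 302 in Meis1-high against Meis1-negative (124 higher, 178 lower), 122 in Meis1-low against Meis1-negative (18 higher, 104 lower) and 462 in the F test. Fgfr2 was the 1 member among them, in all but the third, and there every member had the same SE. Median scaling gave 0, 73 (5 higher, 68 lower), 13 (0 higher, 13 lower) and 61 calls, and a floor gave 21 in Meis1-high against Meis1-negative, none of them a member. Under median scaling the median of all genes in that comparison was -0.20, beside -0.10 with the 75th percentile. The cause of these differences was not tested.

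Leaving out 1 array gave 0 to 947 calls in Meis1-high against Meis1-negative, 0 to 1263 in Meis1-low against Meis1-negative, 0 to 931 in the F test and 0 in Meis1-high against Meis1-low. All calls came without Meis1-negative replicate 2, where that gate's remaining array is assumed to vary like the other gates. The member calls among them were Fgfr2, Fgf9, Fgf12 and Fgfbp1, the last 3 against a dim signal on that array. The members' median ranged from -0.14 to 0.090 in Meis1-high against Meis1-low, from 0.30 to 1.49 in Meis1-high against Meis1-negative and from 0.26 to 1.69 in Meis1-low against Meis1-negative. In Meis1-high against Meis1-low that median was 0.19 with the filter on 4 arrays, 0.21 with means of probes and 0.19 with every probe, so its sign is not settled.

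With the replicate number, which is also the slide, as a block, limma called 0 genes in each comparison and in the F test, with smallest adjusted p of 0.247, 0.178, 0.228 and 0.311. The deviations of same-numbered arrays correlated at 0.209, 0.128 and 0.125 across genes, and the labels pair no pools. Of 1116 values of single members under 17 alternatives, 41 had the other sign, 9 were called and 1032 moved by under 1 SE. Some of these alternatives cannot change a member's difference, namely the slide block, every probe and leaving out an array of the gate not compared. Part of the 1032 was therefore fixed in advance, and these counts overstate how far the values were tested. Fgfr2 kept its sign in Meis1-high against Meis1-low, from 2.62 to 3.26, and Fgfr1 from 0.89 to 5.48.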

Other observations

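Some feedback genes of the FGF route were looked up after their values were seen. Il17rd, a membrane protein that holds back FGF signalling, differed by -3.83 ± 1.89 between Meis1-high and Meis1-low (SE, n = 2 arrays each, limma adjusted p = 0.449), with -6.41 on slide 1 and -1.26 on slide 2. Its difference of Meis1-low from Meis1-negative was 3.64 ± 1.89 (SE, limma adjusted p = 0.611), with 6.89 and 0.39 on the slides, and 0.92 without Meis1-negative replicate 1, so slide 1 carried most of both values. Dusp6, a phosphatase that turns ERK off, had the opposite sign to Dusp4 between Meis1-high and Meis1-low, at 1.36 ± 0.61 (SE, limma adjusted p = 0.408), with 1.17 and 1.55 on the slides. The relay gene Sos1, which loads Ras, had the largest difference of its list there, at 3.05. No gene of that list, Sos1 included, had an unadjusted p under 0.05 in this comparison. None of these passed the test.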
